A study of Mus musculus with 16 samples.

Results

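The genes described here were 10 antigen presentation genes of the mouse major histocompatibility complex (MHC) on chromosome 17, the chromosome region that also holds Daxx. They were chosen by name from the 15156 genes of the deposited table: H2-K1, H2-D1, Psmb8, Tap1, Tap2, Tapbp, H2-Aa, H2-Ab1, H2-Eb1 and H2-DMa. All 10 were present and all 10 passed the filter on low values, as did 14220 genes in all. RNA was sequenced from whole pancreas of 16 mice, 4 in each of 4 genotypes. WT mice were wild type, with no Cre named in their label. DC mice carried Daxx fl/fl with the Pdx1-Cre transgene, MC mice Men1 fl/fl with Pdx1-Cre, and DMC mice both floxed genes with Pdx1-Cre. Every animal was 6 to 10 weeks old at treatment and received caerulein, a cholecystokinin analogue that injures acinar cells, as 4 hourly intraperitoneal doses of 50 ug/kg on 3 days of each of 3 weeks. Tissue was taken 5 days after the last dose. Pdx1-Cre acts in the pancreatic epithelium, so a whole pancreas also holds immune, stromal and endothelial cells in which the floxed genes are not recombined. The comparisons ask what loss of the chromatin regulators Daxx and Men1, singly and together, does to these genes in injured pancreas.

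Class I molecules, made of a heavy chain and beta-2-microglobulin, show peptides from inside the cell to CD8 T cells and are made by nearly all nucleated cells. Their peptides are cut by the immunoproteasome, carried into the endoplasmic reticulum by the TAP transporter and loaded with the help of tapasin. Class II molecules show peptides from endocytosed protein to CD4 T cells and are made mainly by B cells, dendritic cells and macrophages, and both sets are induced by interferon gamma. In pancreas most RNA comes from acinar cells, which normally make little class II.

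The stretches upstream of 4 members are shown because the level of H2-Eb1 relative to H2-Aa, and of H2-K1 relative to H2-D1, carried the clearest pattern in the data. Each is the 250 bases before a transcription start in RefSeq on GRCm38.p6, written 5′ to 3′ on the strand of the gene. Capitals mark the Y box core ATTGG, the binding element of the factor NF-Y, and a short form of the interferon-stimulated response element, GAANNGAAA, each searched on both strands. The H2-K1 window is chr17:34000348-34000597 on the minus strand and that of H2-D1 chr17:35262844-35263093 on the plus strand. The H2-Aa window is chr17:34287824-34288073 on the minus strand and that of H2-Eb1 chr17:34305617-34305866 on the plus strand.
H2-K1: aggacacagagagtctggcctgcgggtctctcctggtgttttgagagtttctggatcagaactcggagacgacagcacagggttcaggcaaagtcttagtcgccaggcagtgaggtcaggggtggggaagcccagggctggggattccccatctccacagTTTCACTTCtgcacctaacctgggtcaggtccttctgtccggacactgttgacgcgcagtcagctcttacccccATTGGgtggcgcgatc
H2-D1: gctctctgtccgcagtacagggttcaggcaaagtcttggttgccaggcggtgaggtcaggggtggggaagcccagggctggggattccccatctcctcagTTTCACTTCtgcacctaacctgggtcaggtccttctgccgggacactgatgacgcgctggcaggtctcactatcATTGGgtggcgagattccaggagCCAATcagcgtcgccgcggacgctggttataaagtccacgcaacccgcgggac
H2-Aa: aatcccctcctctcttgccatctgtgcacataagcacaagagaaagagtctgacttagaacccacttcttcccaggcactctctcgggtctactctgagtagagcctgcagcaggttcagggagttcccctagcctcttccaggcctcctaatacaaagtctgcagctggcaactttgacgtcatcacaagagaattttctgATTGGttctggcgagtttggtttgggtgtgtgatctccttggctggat
H2-Eb1: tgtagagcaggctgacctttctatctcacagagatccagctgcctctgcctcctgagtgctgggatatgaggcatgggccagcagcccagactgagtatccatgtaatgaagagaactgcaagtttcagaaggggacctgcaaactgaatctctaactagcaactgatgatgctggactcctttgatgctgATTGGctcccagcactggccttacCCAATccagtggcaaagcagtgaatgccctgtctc

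RefSeq windows were matched for 8 of the 10 members. The H2-K1 and H2-D1 windows had a run of 47 identical bases in common, whereas the longest run common to the H2-Aa and H2-Eb1 windows was 8 bases. The short interferon element began 90 bases before the H2-K1 start and 150 bases before the H2-D1 start, and it was found in 2 of 8 members. Of 27025 genes with windows of this length 7.30% had it in at least 1 window, and of all 32851 windows 6.31% did; members were counted in the same way, with H2-K1 and H2-DMa having 2 windows each. The longer form GAAANNGAAA, a separate pattern with an additional A, was in 0 of 8 members, 3.46% of genes and 2.98% of windows. The short form was searched after that was seen. A Y box was present in 7 of 8 members, for H2-DMa in 1 of its 2 windows, against 37.5% of genes and 33.8% of windows. It began 48 bases before the H2-Aa start and 59 and 35 bases before that of H2-Eb1. The STAT element TTCNNNGAA was in 1 of 8 members, Psmb8, against 8.13% of genes and 7.02% of windows. These are letter matches in the reference sequence and were not tested for binding.

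The libraries held 13481063 to 23728309 reads recovered from the table. Men1 was at 331 to 459 normalized counts in the WT and 397 to 541 in the DC libraries, above its 116 to 147 in MC and 157 to 178 in DMC, without overlap. For Daxx the ranges were 195 to 346 (WT), 212 to 245 (DC), 223 to 281 (MC) and 160 to 225 (DMC), so the groups with and without floxed Daxx overlapped. Acinar markers, such as Cpa1 and Prss2, averaged 17.5 to 19.4 in log2(normalized count + 1) in every library. The WT group was uneven. Over 10 B cell markers the mean log2 level was 3.98, 8.11, 9.08 and 6.06 in WT libraries 1 to 4, against 3.30 to 7.52 in the other 12 libraries. Member and pathway results against WT are therefore also given without WT libraries 2 and 3, which an earlier analysis of these data had found high in lymphoid genes. A different set of 4 libraries, WT 4 and MC 1, 3 and 4, stood apart in the ratios between members described below.

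Of the class I heavy chains, H2-K1 was measured at 2917, 5418, 11531 and 2431 normalized counts in WT libraries 1 to 4 and at 5667, 3872, 4943 and 4124 in DC. It was at 2478, 3319, 2605 and 3668 in MC and at 3788, 5781, 4006 and 3630 in DMC. WT library 3 was highest, and MC was the group with the lowest mean, 3017 ± 570 (SD, n = 4), against 5574 ± 4181 in WT, 4651 ± 817 in DC and 4301 ± 998 in DMC. H2-D1 was at 2479, 4532, 6872 and 3798 in WT, 5358, 3489, 4108 and 3526 in DC, 4175, 3289, 4140 and 5638 in MC, and 3884, 5000, 3129 and 3189 in DMC. All 4 genotypes overlapped for both genes. Per kilobase of exon, over all annotated exons of a gene, the 16-library means were 1614 normalized counts for H2-D1 and 1493 for H2-K1. These were the highest values among the members on that length, and their difference is smaller than the spread over libraries (SD 430 and 745). The order of members rests on the length used. For H2-Aa it was 3798 bases, while its protein-coding transcripts held 1127 different stretches of 50 bases.

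The genes that supply peptide to class I were lower. Psmb8, a catalytic subunit of the immunoproteasome, was at 99.0, 548, 900 and 228 normalized counts in WT, 419, 197, 357 and 166 in DC, 237, 167, 322 and 408 in MC, and 311, 529, 264 and 250 in DMC. Tap1, a subunit of the peptide transporter, was at 122, 560, 1053 and 204 in WT, 372, 234, 348 and 221 in DC, 278, 352, 341 and 403 in MC, and 256, 540, 272 and 255 in DMC. The highest library exceeded the lowest by 9.09-fold for Psmb8 and 8.63-fold for Tap1, the widest ranges among the 10 members, and in both genes the extremes were WT libraries 3 and 1. Tap2, the partner subunit of Tap1, ranged from 244 to 680 (WT), 223 to 432 (DC), 271 to 389 (MC) and 286 to 415 (DMC). Tapbp, which encodes tapasin, lies 0.309 kb from the end of Daxx by its full annotated span. It ranged from 539 to 1549 (WT), 830 to 1187 (DC), 854 to 1248 (MC) and 803 to 1351 (DMC). In each of these 4 genes the WT range reached above every other group. Per kilobase of exon the means were 278 for Tapbp, 99.9 for Psmb8, 93.5 for Tap2 and 66.3 for Tap1. The last 3 lay within each other's spread over libraries (SD 58.2, 29.0 and 39.7).

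Among the class II chains, H2-Aa, the A alpha chain, was at 774, 2530, 4291 and 1795 normalized counts in WT, 4192, 2522, 2600 and 1865 in DC, 2619, 1516, 2727 and 3860 in MC, and 2203, 3361, 1924 and 1709 in DMC. Its partner H2-Ab1, the A beta chain, was at 743, 2324, 4203 and 1381 in WT, 3905, 2119, 2469 and 1797 in DC, 2028, 1645, 2110 and 3111 in MC, and 1959, 3025, 1822 and 1885 in DMC. For both chains WT library 1 was lowest, WT library 3 highest, and the genotypes overlapped. H2-Eb1, the E beta chain, was at 753, 1987, 3548 and 641 in WT, 3474, 1806, 2168 and 1499 in DC, 880, 1278, 937 and 1298 in MC, and 1661, 2611, 1547 and 1427 in DMC. Here every DC and every DMC library lay above every MC library, while WT spread across all 3 groups. This held for 1 of 10 members, and 0.626% of all tested genes had every DC and DMC library above every MC library. H2-DMa, the alpha chain of the molecule that exchanges peptides on class II, was far lower, at 79.6, 259, 409 and 143 in WT, 345, 194, 221 and 183 in DC, 179, 140, 186 and 239 in MC, and 192, 304, 191 and 134 in DMC. Its means were 223 ± 145, 236 ± 74.4, 186 ± 40.7 and 205 ± 71.3 (SD, n = 4). Per kilobase of all annotated exons the means were 889 for H2-Ab1, 885 for H2-Eb1 and 666 for H2-Aa, with an SD over libraries of 349, 449 and 260, and 61.6 for H2-DMa. The place of H2-Aa in this order rests on its exon length of 3798 bases. In whole tissue, fewer cells of a type and less RNA per cell cannot be told apart.

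**Figure D1:**
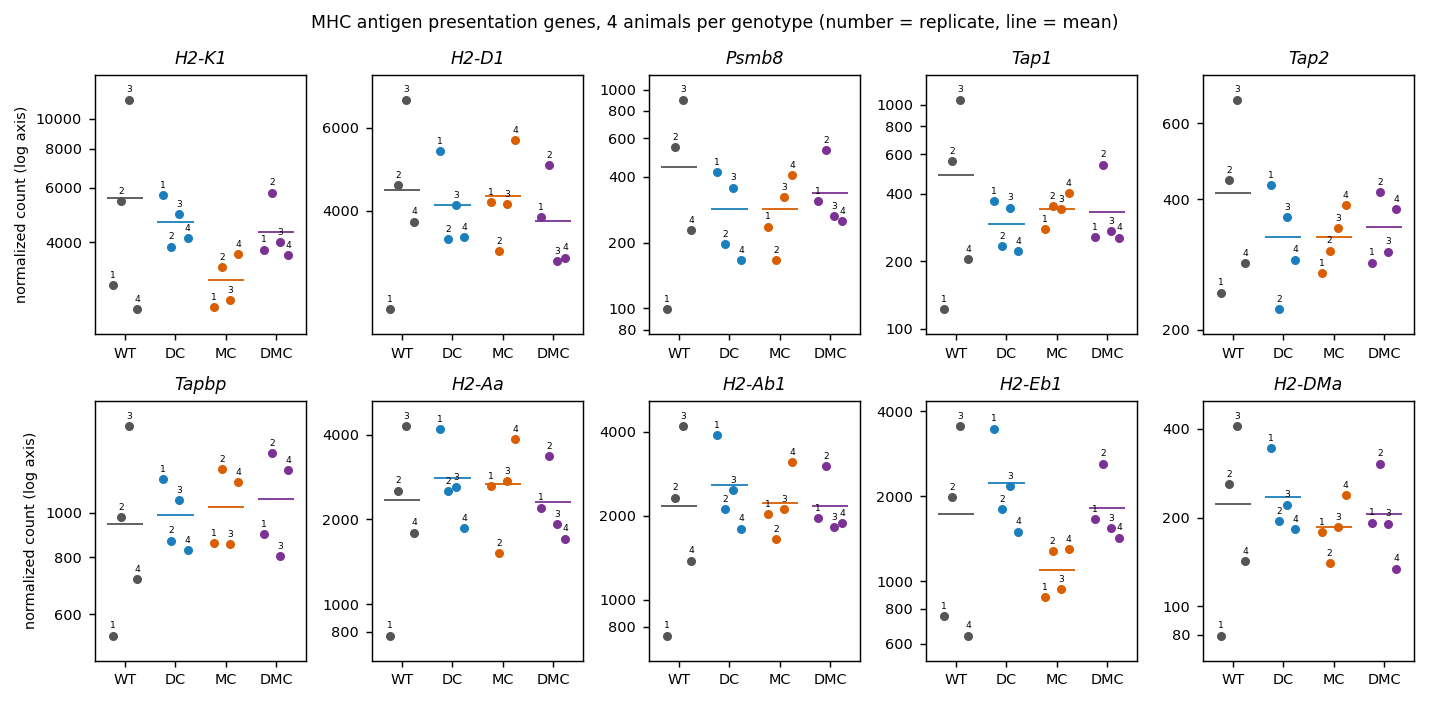
Normalized counts of the 10 genes on a log axis in 4 genotype groups; each point is a mouse, its number the replicate, and the line the group mean. WT library 3 is the highest of 16 libraries for all 10 genes, and in H2-Eb1 the MC points lie below all DC and DMC points.

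No member passed the threshold in any comparison between genotypes. With limma on log2(normalized count + 1) over 14220 genes and a Benjamini-Hochberg adjusted p under 0.05, 0 of 10 members differed between DC and WT, where 0.0211% of all tested genes did. The count was also 0 of 10 for MC against WT (0.781% of all genes), DMC against WT (0.788%), DMC against MC (0.00703%), the libraries with floxed Daxx against those without, averaged over Men1 status (0.0703%), and the interaction of both losses (0%). At these backgrounds a count of 0 among 10 genes is near what all genes gave. At an unadjusted p under 0.05 the members numbered 0, 0, 0, 0, 1 and 0 in the same order, while 1665, 1813, 1784, 792, 1312 and 1156 of all tested genes were under it. These counts moved with the fit, given first for DC against WT. Library quality weights put 3 members under 0.05, all lower (Tap2, Tap1 and Psmb8), beside 2595 of all tested genes. The B, T and NK cell covariate put 4 under it, all higher (H2-Aa, H2-Ab1, H2-Eb1 and H2-DMa), beside 2794 of all tested genes. The interferon covariate put 3 under it, all lower, beside 1905. Leaving out WT libraries 2 and 3 put 7 under it, all higher, beside 2466. In the remaining comparisons, in the order above, the interferon covariate put 8 (lower), 2 (lower), 7 (higher), 4 (higher) and 5 (higher) under it. Beside these were 2780, 2187, 1798, 1978 and 1689 of all tested genes. Leaving out WT libraries 2 and 3 put 5, 8, 2 and 5 (all higher) and 5 (lower) under it, beside 1722, 2277, 886, 2129 and 1385. The B, T and NK cell covariate put 3 (higher), 0, 0, 1 (higher) and 3 (lower), beside 2212, 2250, 896, 1795 and 1918. The quasi-likelihood test of edgeR and DESeq2, run on the recovered reads, also called 0 members in each comparison. At an unadjusted p under 0.05 both tools had 1 member, lower in MC against WT, and 0 in the other comparisons. In MC against WT 1946 (edgeR) and 2046 (DESeq2) of all tested genes were under it.

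The single member with an unadjusted p under 0.05 was H2-Eb1 in the comparison of floxed with intact Daxx. Its log2 difference was 0.67 (SE 0.30, 95% interval 0.03 to 1.32), with an unadjusted p of 0.041 and a limma adjusted p of 0.520. Between DMC and MC it was 0.70 (95% interval -0.21 to 1.61, limma adjusted p = 0.943). The groups did not overlap there for 1 of 10 members, H2-Eb1, as for 4% of all tested genes. Its difference between DC and WT was 0.64 (-0.26 to 1.55, limma adjusted p = 0.608). For H2-K1 the difference between MC and WT was -0.62 (-1.37 to 0.13, limma adjusted p = 0.487). H2-D1, its neighbour in function, differed by 0.03 (-0.52 to 0.58) in the same comparison. The widest intervals belonged to Psmb8, whose difference of -0.28 between MC and WT had an interval of -1.41 to 0.86 that includes a 2-fold decrease.

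Described as a set, the members were spread around 0. Their median log2 difference was 0.08 for DC against WT (range -0.30 to 0.64, 6 of 10 positive) and -0.03 for MC against WT (-0.62 to 0.37, 4 of 10 positive). It was 0.03 for DMC against WT (-0.16 to 0.37), 0.06 for DMC against MC (-0.19 to 0.70) and 0.11 for floxed against intact Daxx (-0.20 to 0.67). The median of all tested genes was -0.02, -0.02, -0.02, 0.01 and -0.01 in the same comparisons. The comparisons with WT have the WT libraries in common.

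The direction of these differences depended on which libraries entered. Without WT libraries 2 and 3 all 10 members were higher in DC than in the remaining WT libraries, with a median log2 difference of 0.83 (range 0.27 to 1.61), and likewise in MC (median 0.74) and DMC (median 0.90). H2-Eb1 then passed the threshold in DC against WT (log2 difference 1.61, limma adjusted p = 0.0375), where 0.288% of all genes did, and with floxed against intact Daxx (1.16, limma adjusted p = 0.0222), where 0.331% did. The other 9 members did not. With only WT libraries 1 and 4 left, the contrast leans on WT library 1, the lowest of all 16 for 7 members, and on WT library 4, the lowest for H2-K1 and H2-Eb1. Mean log2 levels over the 10 members were 10.3 and 11.1 in WT libraries 2 and 3, against 8.84 and 9.40 in libraries 1 and 4. Higher values against WT without libraries 2 and 3 are therefore partly built in. The same holds for the class I and class II pathway lists below, also highest in those WT libraries. Leaving out WT library 4 and MC libraries 1, 3 and 4 instead moved MC against WT to 1 of 10 positive with a median of -0.44, and DMC against MC to 8 of 10 positive with a median of 0.36.

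**Figure D2:**
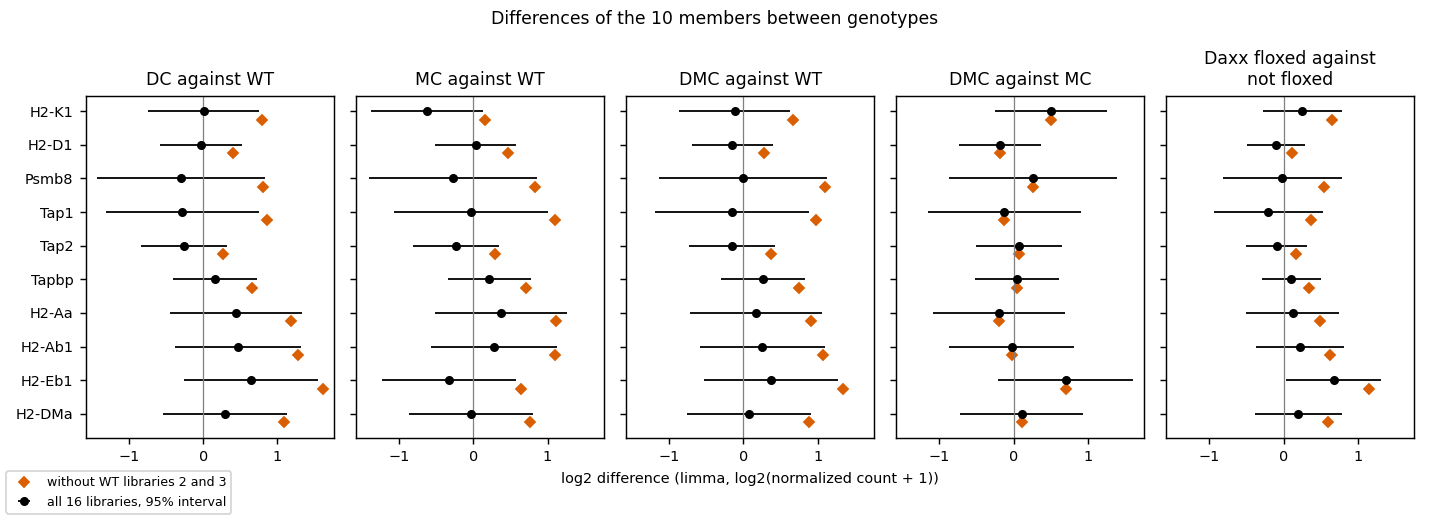
Log2 differences of the 10 genes in 5 comparisons; black points are estimates from 16 libraries with 95% intervals, orange diamonds the estimates without WT libraries 2 and 3. In the 3 comparisons with WT all 10 diamonds lie to the right of 0, and in DMC against MC they coincide with the black points.

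Levels of the members are given beside those of immune and interferon genes. The mean of the 10 members in log2(normalized count + 1) was 8.84, 10.3, 11.1 and 9.40 in WT libraries 1 to 4, 9.66 to 10.5 (DC), 9.65 to 10.2 (MC) and 9.75 to 10.5 (DMC). Over 9 T and NK cell markers the level was 3.04, 7.08, 7.73 and 5.03 in WT, in the same order of libraries as the members. In MC and DC the B cell order differed: MC library 4 had the highest member mean of its group (10.2) at the lowest B cell level (3.31), and DC library 1 had the highest of its group (10.5) at a B cell level of 5.09, against 7.30 in DC library 3. DMC library 2 was the highest of its group in both (10.5 and 7.52). Macrophage markers (8 of 8 tested) ranged from 8.23 to 9.45 (WT), 8.77 to 10.0 (DC), 8.92 to 9.58 (MC) and 9.19 to 9.95 (DMC). Dendritic cell markers (8 of 8 tested) ranged from 4.27 to 6.73 in WT and 4.73 to 6.51 in the other groups. Interferon response genes outside antigen presentation averaged 5.31, 7.31, 8.31 and 6.25 in WT, 6.90 to 7.28 (DC), 7.34 to 8.19 (MC) and 6.60 to 7.99 (DMC). MC library 4 and DC library 1 were the highest of their groups in macrophage level (9.58 and 10.0) and in interferon level (8.19 and 7.28). In DMC, library 2 had the highest interferon level (7.99) and library 1 the highest macrophage level (9.95). No immune marker in these lists was at 0 in any library, and of the 23 interferon genes Cxcl9 alone was, in WT library 1. The part of cell mixture in the member values was not tested.

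With the interferon level of each library as a covariate, 4 members were lower in MC than in WT. H2-K1 differed by -1.26 (limma adjusted p = 0.00764), Psmb8 by -1.24 (adjusted p = 0.0321), H2-Eb1 by -1.09 (adjusted p = 0.0290) and Tap1 by -0.98 (adjusted p = 0.0161). In that fit 4.77% of all tested genes passed. All 4 MC libraries had an interferon level above that of 3 of the 4 WT libraries. The fit compares members at equal interferon level, and whether a common signal acts on both was not tested. The direction was not stable in this comparison. With the B, T and NK cell level as covariate Tap1 was 0.70, Psmb8 0.56 and H2-Eb1 0.21 higher in MC on the log2 scale, and without WT libraries 2 and 3 the values were 1.10 for Tap1, 0.83 for Psmb8, 0.64 for H2-Eb1 and 0.16 for H2-K1, with 0 members called in either limma fit.

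**Figure D3:**
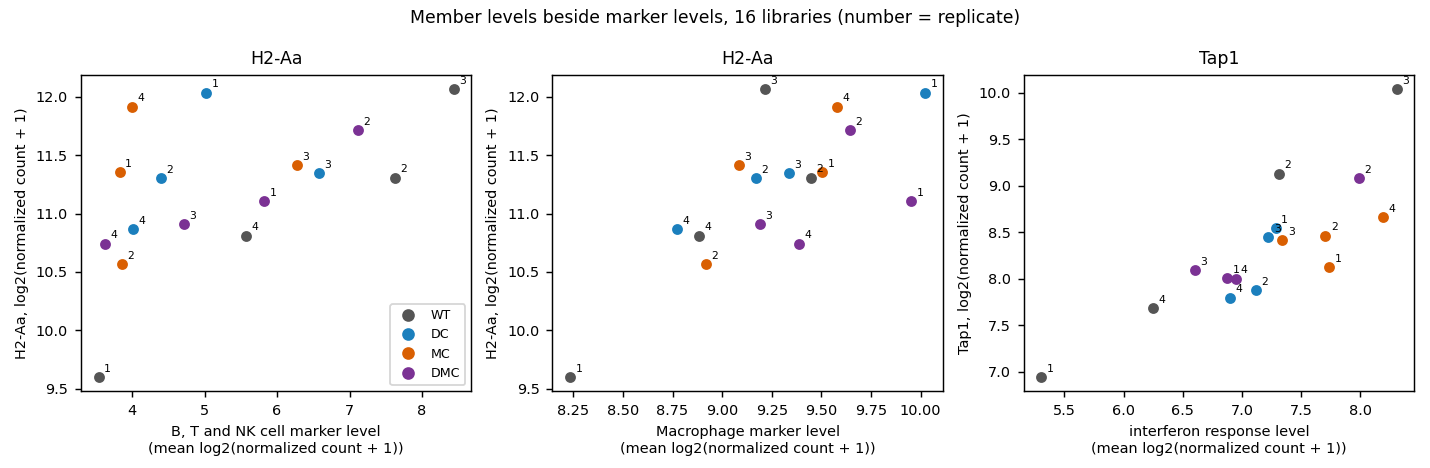
Level of H2-Aa against B, T and NK cell markers and against macrophage markers, and of Tap1 against interferon response genes, all in log2(normalized count + 1) with a point per library and its replicate number. WT library 1 lies at the lower left and WT library 3 at the top of each panel. MC library 4 has high H2-Aa at a low lymphoid marker level.

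Pairs of members varied together across the 16 libraries. Pearson's r of the log2 levels ranged from 0.565 for H2-K1 with H2-Aa to 0.967 over 45 pairs, with a median of 0.793. The members were left out of the likeness described next. The other genes most like H2-Aa were Cd74, the invariant chain of class II (r = 0.948, Spearman's rho = 0.885), Milr1 (r = 0.931, rho = 0.900) and Cd84 (r = 0.930, rho = 0.877). Those most like Tap1 were Psmb9, an immunoproteasome subunit encoded beside it (r = 0.964, rho = 0.927), Lpxn (r = 0.954, rho = 0.853) and Ccdc88b (r = 0.949, rho = 0.912). H2-K1 was followed most closely by the class I genes H2-T22 (r = 0.942, rho = 0.900), H2-Q7 (r = 0.929, rho = 0.935) and H2-Q6 (r = 0.922, rho = 0.947). These values describe 16 libraries that have depth, scaling and tissue mixture in common, and no test was made of them.

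Against this shared movement, 2 ratios within libraries took separate levels. The count of H2-Eb1 relative to H2-Aa was 0.973, 0.786, 0.827 and 0.357 in WT libraries 1 to 4 and 0.336, 0.843, 0.344 and 0.336 in MC. In DC it was 0.829, 0.716, 0.834 and 0.804 and in DMC 0.754, 0.777, 0.804 and 0.835. WT library 4 and MC libraries 1, 3 and 4 thus lay at 0.336 to 0.357 and the other 12 at 0.716 to 0.973, with none between. The counting intervals of the lower set reached no higher than 0.393 (WT library 4, 95% interval 0.325 to 0.393), and those of the higher set no lower than 0.678 (DC library 2, 0.678 to 0.757). This ratio was looked at after the values had been seen and is a description.

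The class I heavy chains divided the libraries in the same way. H2-K1 relative to H2-D1 was 1.18, 1.20, 1.68 and 0.640 in WT, 1.06, 1.11, 1.20 and 1.17 in DC, 0.593, 1.01, 0.629 and 0.651 in MC, and 0.975, 1.16, 1.28 and 1.14 in DMC. WT library 4 and MC libraries 1, 3 and 4 were again the low ones, at 0.593 to 0.651, and the others were at 0.975 to 1.68. The ratio of H2-Ab1 to H2-Aa was also lowest in those 4, at 0.769 to 0.806 against 0.840 to 1.10, a smaller step. The logarithms of the first 2 ratios had r = 0.918 and rho = 0.629 over the 16 libraries. In the 4 libraries H2-D1 was at 3798, 4175, 4140 and 5638 and H2-Aa at 1795, 2619, 2727 and 3860, beside 16-library means of 4163 and 2530. All 8 libraries with floxed Daxx were in the higher set, and the 8 without were divided 4 and 4.

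**Figure D4:**
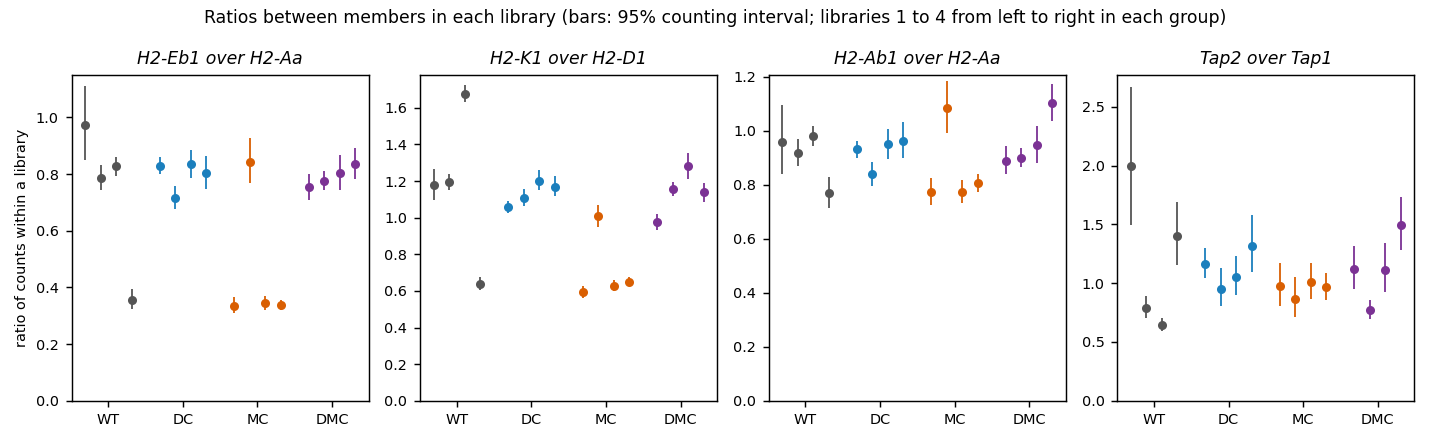
Ratios between pairs of members within each library, with 95% counting intervals, by genotype and with libraries 1 to 4 from left to right. For H2-Eb1 over H2-Aa and H2-K1 over H2-D1, WT library 4 and MC libraries 1, 3 and 4 lie apart from the other 12 libraries, while Tap2 over Tap1 shows no such division.

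Few other genes followed both ratios. Of 14210 tested genes outside the members, 35 (0.246%) had a Pearson r of at least 0.7 in size with both log ratios, 5 of them among the 683 on chromosome 17 (0.732%). Gm10260, a gene model on chromosome 13, was among them: it was at 493 normalized counts in WT library 4 and at 379, 608 and 479 in MC libraries 1, 3 and 4, against 0.830 to 5.50 in the other 12. Gm8909, on chromosome 17, was at 15.4, 18.4, 11.1 and 26.1 in the same 4 libraries and at most 4.74 elsewhere. Glo1, the glyoxalase 3282.54 kb from Daxx and a gene known to differ in copy number among inbred mouse strains, was at 484 in WT library 4 and 433, 483, 529 and 464 in MC, below its 701 to 1186 in the other 11 libraries, so MC library 2 was in the low set for Glo1 and in the high set for both ratios. These genes were named after their values were seen. The labels used here give no strain and no MHC haplotype, and the part of inherited sequence differences or of read alignment to the reference allele was not tested.

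Without WT library 4 and MC libraries 1, 3 and 4, an alternative chosen after seeing the data, the lone MC library is assumed to vary like the other groups. The difference of H2-Eb1 between floxed and intact Daxx was then 0.37 (limma adjusted p = 0.821) in place of 0.67, and between DC and WT 0.28 (adjusted p = 0.890) in place of 0.64. For H2-K1 floxed against intact Daxx gave 0.02 in place of 0.25. Other differences grew: MC against WT was -0.77 for H2-K1 in place of -0.62 and -1.13 for Psmb8 in place of -0.28, and DMC against MC was 0.95 for Psmb8 in place of 0.27. The 4 libraries were picked for their low H2-Eb1 and H2-K1 ratios, so a smaller difference of these genes without them is partly built in. No member was called in any comparison in that limma fit.

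Sequence shared with other genes bears on how reads could be assigned. Of the 50-base stretches in the reference transcripts, 6.87% of those of H2-K1 occurred in another gene, most often H2-D1, and 13.9% of those of H2-D1 did, most often H2-Q1. For Tapbp the share was 3.5%, spread over 212 other genes. Tap1 and Tap2 had 0.834% and 0.708%, each with the other. H2-Aa, H2-Ab1, H2-Eb1, H2-DMa and Psmb8 had 0%. The values of H2-K1 and H2-D1 are therefore uncertain where reads could have been divided between copies. The same applies to the smaller shares of Tapbp, Tap1 and Tap2.

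The other genes of the class I pathway, 17 of 17 tested, had 0 members past the threshold in each of the 6 comparisons in limma, in either direction. Their median log2 difference was -0.12 for DC against WT, -0.28 for MC against WT with 1 of 17 positive, -0.11 for DMC against WT and 0.12 for DMC against MC. Without WT libraries 2 and 3 the medians against WT were 0.37, 0.32 and 0.42 for DC, MC and DMC, with 14, 13 and 14 of 17 positive. Nlrc5 (2.10, limma adjusted p = 0.0478) and H2-Q6 (2.35, adjusted p = 0.0288) then passed in DC against WT, where 0.288% of all genes did. H2-Q6 also passed with floxed against intact Daxx (1.79, limma adjusted p = 0.0115), where 0.331% did. Both genes were highest in the WT libraries left out, 2 and 3, so these differences are partly built in. B2m, the light chain of class I, differed by -0.33 between MC and WT (limma adjusted p = 0.787), and by 0.51 without WT libraries 2 and 3 (adjusted p = 0.506). Nlrc5, the transactivator of class I genes, was at 60.1, 723, 1492 and 104 normalized counts in WT, 251 to 487 (DC), 194 to 276 (MC) and 179 to 543 (DMC). WT library 1 and WT library 3 were again its lowest and highest libraries. Psmb10, an immunoproteasome subunit encoded outside the MHC, differed by -0.68 between DMC and WT (limma adjusted p = 0.188) and by -0.80 without WT libraries 2 and 3 (adjusted p = 0.192). H2-Q6, a class I gene outside the classical set, was at 51.3, 567, 1114 and 67.0 in WT, with ranges of 197 to 418 (DC), 89.5 to 117 (MC) and 129 to 481 (DMC), so all MC libraries lay below all DC and DMC libraries, as in the 0.626% of tested genes given above.

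The remaining class II pathway, 11 of 12 listed genes, also had 0 members past the threshold in every comparison, with medians of 0.00, -0.03, -0.10 and 0.11 in the same order. Without WT libraries 2 and 3 the medians against WT were 0.83, 0.56 and 0.90 for DC, MC and DMC, with 10, 11 and 10 of 11 positive and 0 past the threshold. Cd74 was at 1810, 5728, 9625 and 3278 in WT, 3602 to 8480 (DC), 3156 to 6112 (MC) and 3816 to 6872 (DMC). Ciita, the class II transactivator, ranged from 131 to 1203 (WT), 258 to 619 (DC), 303 to 358 (MC) and 200 to 520 (DMC), so the WT range covered all other groups. H2-DMb1, the partner of H2-DMa, differed by 0.50 between floxed and intact Daxx (limma adjusted p = 0.652), and by 0.92 without WT libraries 2 and 3 (adjusted p = 0.102).

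Nearness to Daxx was described with the other genes of the region. In GRCm38, Daxx spans 33909414 to 33915590 on chromosome 17, and 9 of the 10 members start within 1 Mb of it. Tapbp (33915899 to 33929292 by its full annotated span) comes next and overlaps Zbtb22, which is annotated from 33915904. The RefSeq window upstream of a Tapbp start spans 33919228 to 33919477, farther from Daxx. H2-K1 (33996017 to 34000347) lies 80.4 kb away from Daxx. H2-DMa (34119541 to 34139101), Tap1 (34187553 to 34197225), Psmb8 (34197721 to 34201454) and Tap2 (34203527 to 34216321) follow. The class II chains H2-Ab1 (34257689 to 34269419), H2-Aa (34282744 to 34287823) and H2-Eb1 (34305867 to 34316674) come next, and H2-D1 (35262730 to 35267499) is 1347 kb from Daxx. Of 61 other tested genes within 1 Mb of the Daxx start, limma called 0 in each of the 6 comparisons. At an unadjusted p under 0.05 were 4, 3, 5, 4, 7 and 3 of them, beside 1665, 1813, 1784, 792, 1312 and 1156 of all 14220 tested genes. Without WT libraries 2 and 3 Zfp955b passed in DMC against MC (0.78, limma adjusted p = 0.0481), where 9 of all 14220 tested genes did. It also passed with floxed against intact Daxx (0.68, limma adjusted p = 0.0120), where 47 of all 14220 did. No other of the 61 genes passed in any comparison. Their median with floxed against intact Daxx was 0.02, beside 0.11 for the members. The 17 tested neighbours without a role in antigen presentation, such as Ring1 and Brd2, had a median of -0.02 in that comparison and 0 calls. Their mean log2 level ranged from 8.03 to 8.28 over the 16 libraries, against 8.84 to 11.1 for the members.

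**Figure D5:**
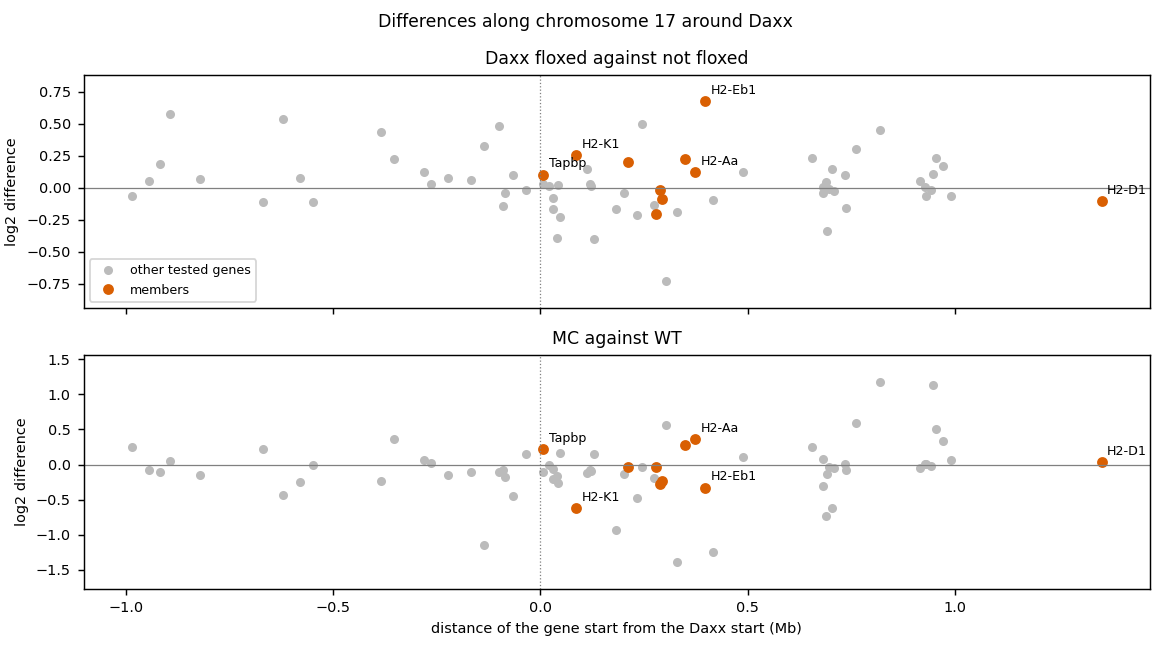
Log2 differences of the members (orange) and of other tested genes (grey) by the distance of the gene start from the Daxx start in Mb, for floxed against intact Daxx and for MC against WT. H2-Eb1 is the highest member in the upper panel and H2-K1 the lowest in the lower one; grey points lie on both sides of 0 at all distances.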

How the data were processed

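Strand-specific total RNA libraries of whole pancreas were sequenced, 4 mice per genotype, per the labels' protocols. Per the submitters' processing notes, reads were aligned with STAR 2.6.0b to GRCm38 and DESeq2 was used. The sources used here do not give the read counter, or how reads that match near-identical genes were counted. Deposited were gene counts that the authors had scaled, a normalized count signal with a size factor for each library. Reads were recovered by dividing by the step of each library, and 100% of values came out whole within 0.01 reads, with size factors of 0.566 to 1.63. Gene positions came from GENCODE mouse release 21, which held 15146 of the 15156 identifiers without version and lacked 10.

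Genes with at least 10 normalized counts in at least 4 libraries were tested (14220) with limma 3.58.1 (trend) in R 4.3.3 on log2(value + 1), all 16 libraries in a single fit, with Benjamini-Hochberg adjustment over all genes at 0.05. A fold change on this scale understates the change of low genes. The script was checked on simulated data. edgeR 4.0.16 and DESeq2 1.42.0 on recovered reads, other scalings, pseudocounts and filters, a replicate block, covariates and left-out libraries were alternatives. Counting intervals of 95% treat reads as independent and cover counting error only. No library repeated another, with a chi-square per degree of freedom of 8.69 to 137 within groups.

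The members, lists and libraries left out were chosen with earlier results of these data known. All members are named. Other genes named are Daxx, Men1 as a label check, listed genes and the 3 genes most like each of H2-Aa, H2-K1 and Tap1, and those said to be chosen after their values were seen. Of the listed genes, B2m, Nlrc5, Psmb10, Cd74, Ciita and H2-DMb1 are given for their role.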

Additional observations from a re-analysis of the deposited data

Results flagged for a closer look

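In each genotype the highest or lowest of 4 libraries was compared with the other 3 for 10 members and for the ratios between them, by the gap to the nearest library over the whole range with a limit of 0.829. Of 72 such groups of values 7 passed, and chance alone passes about 1 in 20. MC library 2 was high in H2-Eb1 over H2-Aa at 0.843 (others 0.336 to 0.344), in H2-Ab1 over H2-Aa at 1.08 (0.774 to 0.806) and in H2-Eb1 over H2-Ab1 at 0.777 (0.417 to 0.444). These 3 ratios have genes in common and come from the same library. DMC library 2 was high in H2-Ab1 at 3025 normalized counts (others 1822 to 1959) and in Tap1 at 540 (255 to 272); its B cell marker level of 7.52 was the highest in DMC. DMC library 4 was low in H2-Eb1 over H2-Ab1 at 0.757 (0.848 to 0.863). DMC library 1 was high in Psmb8 over Tap1 at 1.21 (0.971 to 0.982).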

How the results depend on the processing

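Of 184 counts of members past the threshold under 31 alternatives, 181 were 0 as reported. Without both WT libraries 2 and 3 the count was 1 in DC against WT and 1 in floxed against intact Daxx, both H2-Eb1, and with the interferon covariate it was 4 in MC against WT. Signs were followed for H2-Eb1 and H2-K1 in each comparison, and for Tap1 and Psmb8 in MC against WT. Several of these differences changed sign. The remaining members changed sign too in MC against WT. Their values ran from -0.42 to 1.11 for H2-Aa, -0.47 to 1.09 for H2-Ab1 and -0.74 to 0.77 for H2-DMa. They ran from -0.42 to 0.46 for H2-D1, -0.68 to 0.30 for Tap2 and -0.26 to 0.71 for Tapbp. H2-K1 in DC against WT, reported as 0.0034, was -0.0114 with TMM scaling, -0.33 with library quality weights, -0.29 in edgeR, -0.26 in DESeq2, -0.22 with the interferon covariate, -0.30 without WT library 4 and MC libraries 1, 3 and 4, and -0.30 to 0.45 with each replicate left out in turn. Without WT libraries 2 and 3, differences from WT became positive for MC in H2-Eb1 (0.64), H2-K1 (0.16), Tap1 (1.10) and Psmb8 (0.83) and for DMC in H2-K1 (0.67), while the interaction became -0.91 for H2-Eb1 and -0.28 for H2-K1. With the B, T and NK cell level as covariate, MC against WT was 0.21 for H2-Eb1, 0.70 for Tap1 and 0.56 for Psmb8, DMC against WT was 0.11 for H2-K1, and the interaction of H2-Eb1 was -0.57. With each replicate left out, MC against WT ran from -0.69 to 0.13 for H2-Eb1, -0.53 to 0.50 for Tap1 and -0.85 to 0.21 for Psmb8, with WT replicate 3 giving the highest value of each. DMC against WT ran from -0.42 to 0.32 for H2-K1, and the interaction of H2-Eb1 from -0.40 to 0.42. The cause was not tested. Over all genes DESeq2 called 283 in DC against WT where limma called 3, and 391, 331, 56, 114 and 43 in the other comparisons where limma called 111, 112, 1, 10 and 0; without the 4 libraries that stood apart in the ratios limma called 0, 5, 10, 2, 6 and 0.

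A replicate block left H2-Eb1 at 0.64 in DC against WT, called 0 members, and gave 3, 46, 36, 0, 4 and 0 genes in all. Same-numbered libraries deviated together with r of -0.37 to 0.38 (median -0.03, 24 pairs), and 1 of 16 libraries was closest to its own number, so the numbers were not used as pairs.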
